A study of Sus scrofa with 105 samples.

Results

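Of 105 small RNA libraries made from piglet brain after diffuse traumatic injury or none, 28 are described here. The animals were female pigs (Sus scrofa), and the tissue had been fixed and embedded in paraffin. All 28 came from the hippocampus together with the amygdala, the temporal lobe structures that serve memory and emotional learning. They were chosen by the labels for region and group. In 10 libraries the piglets had been injured and then treated with cyclosporine A (CsA): per the labels' protocols, 20 mg/kg per day was given into a vein, with a loading dose at 6 hours after injury, an infusion for 24 hours, and 30 hours of survival in all. The other 18 libraries came from untreated piglets labelled Sham/Naïve, 2 kinds of control that the labels do not tell apart and which survived 0 to 8 days. Injured piglets without the drug, with 10 libraries at 1 day and 15 at 1 week (6 to 8 days), entered the same fit, and the libraries at 1 day gave a second comparison. The labels name no CsA group without injury, so the part of the drug and the part of the injury in the CsA minus sham difference cannot be told apart, nor can the difference in survival time. Animals were told apart by the code in the library name, with 1 library per code in this region, and it is assumed that each code is 1 animal.

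MicroRNAs (miRNAs) are short RNAs cut from hairpin precursors. Dicer releases a duplex with a 5p and a 3p arm, and as a rule 1 arm is loaded into an Argonaute protein, where it lowers the stability and translation of messenger RNAs that pair with its seed, while the other arm is degraded. Several are markers of cell types: miR-124 and miR-9 of neurons and neural progenitors, miR-219 and miR-338 of oligodendrocytes, miR-126 of endothelium, miR-142 and miR-223 of leukocytes, miR-451 of red blood cells and miR-122 of hepatocytes. CsA inhibits calcineurin, the phosphatase that activates NFAT transcription factors in T cells and neurons, and blocks opening of the mitochondrial permeability transition pore, the property for which it has been studied in brain injury.

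Markers of the brain were present in both groups. The summed level of the neuron markers (miR-124a, miR-9 and miR-128) had a median of 24189 CPM (the count relative to the library total, scaled with TMM factors) in CsA libraries and 21814 CPM in sham libraries. The oligodendrocyte markers summed to a median of 704 CPM in CsA libraries and 1032 CPM in sham libraries. Depth differed between the groups. Library totals ran from 7441683 to 11964550 counts in CsA libraries and from 409637 to 10115115 counts in sham libraries. The geometric mean total was 2.12 times as high in CsA libraries (9365963 against 4411343 counts, permutation p = 0.00761, adjusted p = 0.0083 over 2 tests), and 12 of the 18 sham libraries lay below the lowest CsA total. The let-7 family took 73.4% ± 3.45 of the counts in CsA libraries (SD, n = 10) and 77.5% ± 3.69 in sham libraries (n = 18), a difference of -4.11 percentage points (permutation p = 0.0083, adjusted p = 0.0083). Animal codes were also unevenly spread: 5 CsA and 6 sham codes began with 11, 5 CsA and 5 sham codes with 12 or 13, and the other 7 codes, all sham, with other digits. All 10 CsA codes carried the letter U, as did 6 of the 18 sham codes, all 6 among those with other digits. Within the codes beginning 11, and within those beginning 12 or 13, code letter and group therefore cannot be told apart. The meaning of the codes is not stated in the sources at hand. Among codes beginning 11 the ratio of totals was 3.01 (exact permutation p = 0.00433, n = 5 and 6), and among codes beginning 12 or 13 it was 1.22 (exact permutation p = 0.175, n = 5 and 5).

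The first question was which miRNAs differed between the injured, CsA-treated hippocampus and amygdala and those of sham or naive piglets. Of 299 mature miRNAs tested with edgeR's quasi-likelihood test, 60 passed an adjusted p of 0.05 (20.1%), 30 of them higher (10.0%) and 30 lower (10.0%) in CsA libraries. Some names share their reads, and counted by distinct reads 58 of 290 passed, 28 higher and 30 lower. The changes were small. The median fold was 1.46 among the miRNAs that rose and 1.54 among those that fell, 11 of the 60 changed at least 2-fold, and for 0 of the 299 (0%) were the values of both groups fully apart. The median log2 fold change over all 299 was 0.01. Calls were spread over the range of levels: 8 higher and 5 lower among the 100 miRNAs with the lowest mean level, 12 and 13 among the 99 in the middle, and 10 and 12 among the 100 with the highest.

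The count of calls moved across settings for depth and animal code, and the part of depth, code or smaller sets in it was not tested. With the log10 library total as a covariate 3 miRNAs passed: miR-935 (log2 0.57, adjusted p = 0.00586), miR-18a (log2 -0.62, adjusted p = 0.0468) and miR-299 (log2 0.35, adjusted p = 0.0468). Among codes beginning 11, where the totals differed most, 50 of 281 passed, and 38 of the 60 were among them. Among codes beginning 12 or 13, with 5 libraries a group, edgeR called 0 of 287 (24 by unadjusted p), and 54 of the 60 miRNAs had the same sign as in all libraries. With only the 6 sham libraries at or above the lowest CsA total, 0 of 291 passed (16 unadjusted) and 55 of the 60 had the same sign. Both sets are parts of the libraries that gave the 60 calls, so the shared signs are no independent support. Without the 3 sham libraries with fewer than 2000000 counts (sham replicates 5, 6 and 9), 49 passed.

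Among the miRNAs with at least 10 CPM in either group, miR-935 had the smallest p of all. It measured 58.1 to 99.7 CPM with a median of 73.4 in CsA libraries, against 28.9 to 64.4 CPM with a median of 46.4 in sham libraries. All 10 CsA libraries lay above the sham median and 8 lay above the highest sham library, so the groups overlapped only at the edge. Its fold was 1.65 (log2 0.72, SE 0.12, adjusted p = 2.77e-05), with log2 0.76 among codes beginning 11 and 0.60 among codes beginning 12 or 13.

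The largest rise in this class was that of miR-212, which is transcribed with miR-132 from a locus that neuronal activity switches on through the transcription factor CREB. It measured 4.26 to 17.6 CPM with a median of 11.6 in CsA libraries, and 1.07 to 13.2 CPM with a median of 5.24 in sham libraries. The groups overlapped over much of their range, and 9 of 10 CsA libraries were above the sham median. The fold was 1.77 (log2 0.82, SE 0.25, adjusted p = 0.017), with log2 0.59 among codes beginning 11 and 0.86 among codes beginning 12 or 13, neither of which passed alone. miR-132 itself was at 103 ± 28.3 CPM in CsA libraries and 110 ± 20.2 CPM in sham libraries (log2 -0.10, adjusted p = 0.513).

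miR-505 spanned 14.2 to 29.2 CPM (median 23.2) in CsA libraries and 5.52 to 20.7 CPM (median 11.0) in sham libraries. All 10 CsA libraries exceeded the sham median and 6 exceeded every sham library (log2 0.79, SE 0.19, adjusted p = 0.0043). miR-326, studied in mouse and human T helper 17 cells, ran from 29.5 to 115 CPM (median 44.7) in CsA libraries and from 11.8 to 49.1 CPM (median 32.2) in sham libraries (log2 0.75, SE 0.18, adjusted p = 0.00475). CsA replicate 3 stood alone at the top of that range. Without the small sham libraries the log2 fold changes of miR-505 and miR-326 were 0.72 and 0.72.

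miR-15b, a member of the miR-15/16 family known to repress BCL2 and cell cycle genes in human cells, had the highest CPM of the 12 named miRNAs that rose. It measured 164 to 339 CPM (median 236) in CsA libraries against 88.3 to 264 CPM (median 156) in sham libraries, with all 10 CsA libraries above the sham median (log2 0.59, SE 0.14, adjusted p = 0.0043). miR-27a, of the miR-23a cluster, was at 31.1 ± 9.29 CPM in CsA libraries and 21.7 ± 8.08 CPM in sham libraries (log2 0.50, adjusted p = 0.0332), a call lost in 7 of the 28 fits that left out 1 library. The other named miRNAs that rose were miR-105-1 (log2 0.61), miR-455-3p (0.54) and 4 arms that are the minor product of their precursor, miR-221-5p (0.71), let-7d-3p (0.63), miR-99a-3p (0.62) and miR-574-3p (0.58). Their mean levels lay between 15.9 and 47.4 CPM in CsA libraries and between 9.86 and 30.4 CPM in sham libraries. let-7d-3p no longer passed without CsA replicate 3 (adjusted p = 0.0513). All 12 had a positive sign among codes beginning 12 or 13, where none passed, and with the library total as a covariate, where miR-935 passed. The 12 were chosen as the largest rises in a fit that held these same libraries, so the shared signs are no independent support.

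**Figure D1:**
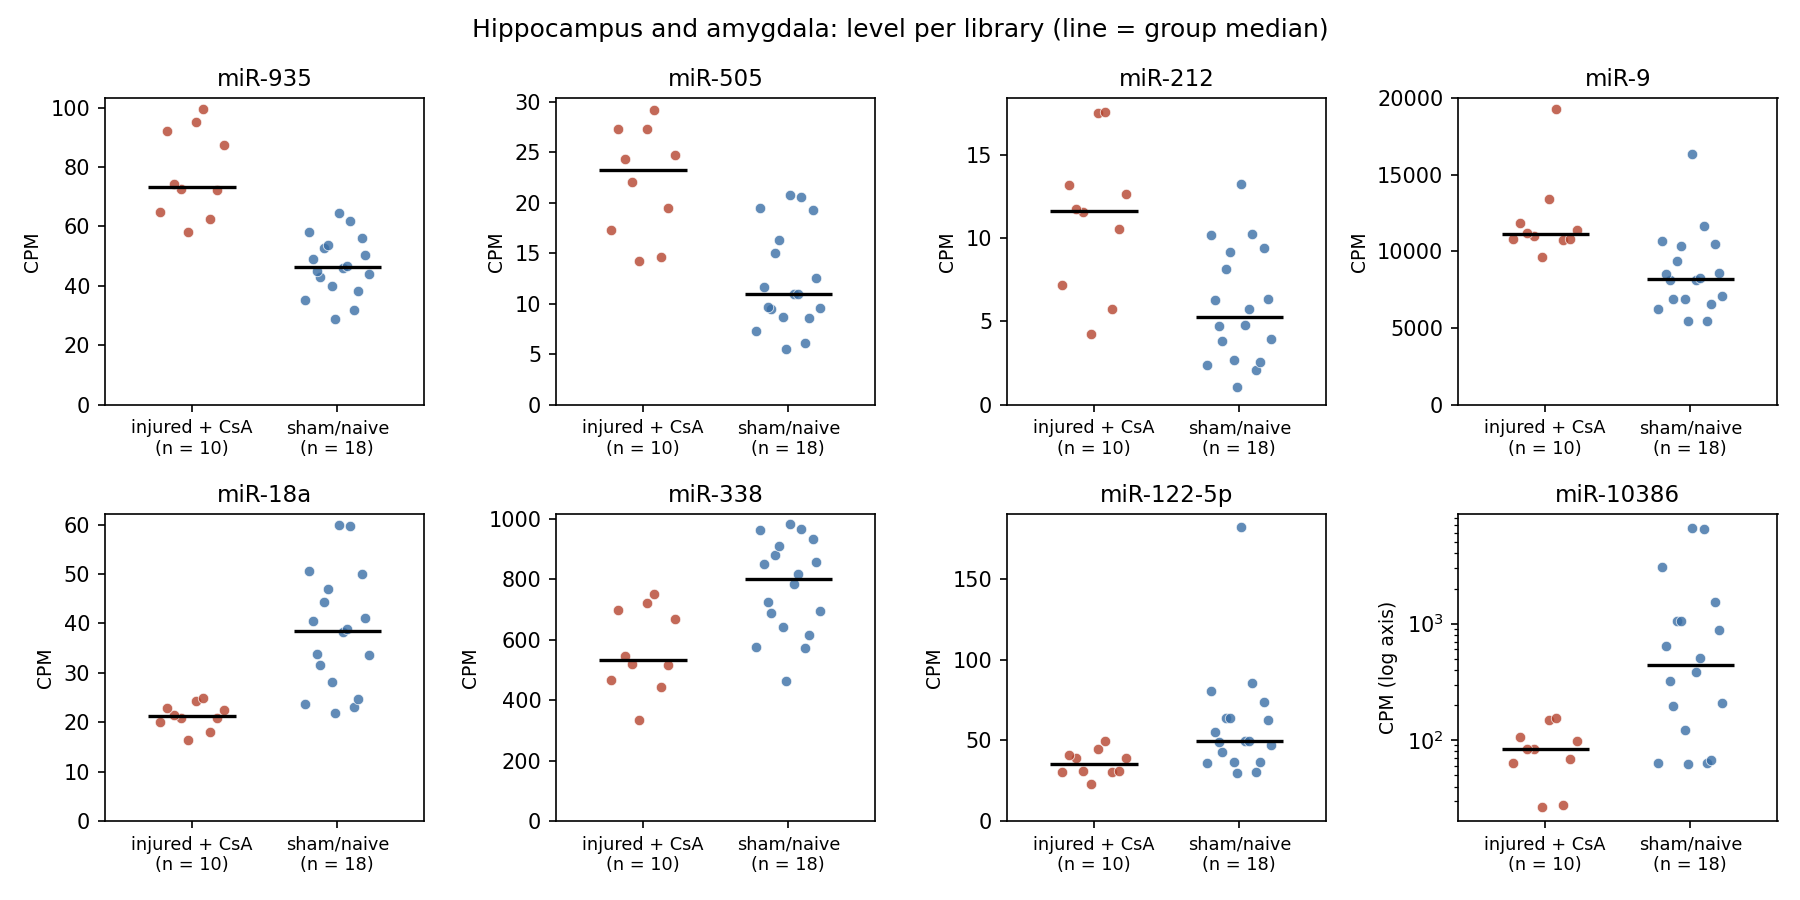
Level in CPM of 8 miRNAs in each hippocampus and amygdala library, with injured CsA-treated piglets (n = 10) left of sham or naive piglets (n = 18). Points are libraries and lines are medians, and the axis is logarithmic for miR-10386 only. The CsA libraries of miR-935 sit between 58.1 and 99.7 CPM, 8 of them above every sham library, and those of miR-18a between 16.5 and 25.0 CPM, 6 of them below every sham library.

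Among the 12 named miRNAs that fell, miR-18a had the smallest SD relative to its mean in CsA libraries. It is a member of the miR-17-92 cluster, which promotes proliferation of progenitor and tumour cells. CsA libraries held 16.5 to 25.0 CPM (median 21.2) and sham libraries 21.9 to 59.9 CPM (median 38.5). All 10 CsA libraries lay below the sham median and 6 lay below every sham library (log2 -0.84, SE 0.17, adjusted p = 0.000566). The log2 fold change was -0.98 among codes beginning 11 and -0.34 among codes beginning 12 or 13, where it did not pass.

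The largest fold belonged to miR-10386, a miRNA in the porcine catalogue. It measured 26.7 to 156 CPM (median 84.0) in CsA libraries and 62.3 to 6590 CPM (median 444) in sham libraries. The CsA values formed a narrow band at the low end of a sham range that spread over 2 orders of magnitude (log2 -3.90, SE 0.78, adjusted p = 0.000566). Without the 3 small sham libraries the log2 fold change was -2.47, among codes beginning 11 it was -4.64, and among codes beginning 12 or 13 it was -0.94 and did not pass. Its level followed the library total within the sham group alone (r = -0.859 and rho = -0.946 over 18 libraries, permutation p = 1e-05 for both, the smallest that 100000 resamples can give). Without the 2 libraries farthest from the median total r was -0.931. Total and code moved together within the sham group. Sham totals were 1177273 to 6365194 counts for codes beginning 11 and 5604391 to 10115115 counts for codes beginning 12 or 13. The parts of total and code in this relation, and in those of the next paragraph, were not tested.

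The same relation held within sham libraries for 5 more of the 12 named miRNAs that fell. These were miR-4332 (r = -0.865, rho = -0.891), miR-4331-3p (r = -0.941, rho = -0.831), miR-574-5p (r = -0.912, rho = -0.864), miR-1285 (r = -0.784, rho = -0.886) and miR-885-3p (r = -0.574, rho = -0.746). Adjusted permutation p-values over 24 relations ran from 5.99994e-05 to 0.0323 for r and from 0.00012 to 0.00216 for rho, and without the 2 farthest libraries r stayed between -0.658 and -0.844. Of the 12 named miRNAs that rose, 5 were higher in larger sham libraries by r, by rho or by both. let-7d-3p passed for both r (0.637) and rho (0.546), and miR-212 for r alone (0.622, adjusted permutation p = 0.0191). miR-935 (rho = 0.639), miR-99a-3p (rho = 0.645) and miR-221-5p (rho = 0.552) passed for rho alone, with adjusted permutation p-values of 0.0168, 0.016 and 0.0489. Without the 2 farthest libraries r of these 5 lay between 0.415 and 0.696. Against sham, miR-4332 had a log2 fold change of -2.05 (12.0 ± 6.20 against 55.8 ± 85.4 CPM), miR-4331-3p of -1.70 (8.48 ± 3.90 against 33.3 ± 59.1 CPM) and miR-574-5p of -1.25 (185 ± 65.6 against 447 ± 650 CPM). Their sham SDs exceeded their sham means. Without the small sham libraries these were -1.28, -0.68 and -0.51, and none of the 3 passed. With the total as a covariate they were 0.33, 0.05 and 0.10, the opposite sign.

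**Figure D2:**
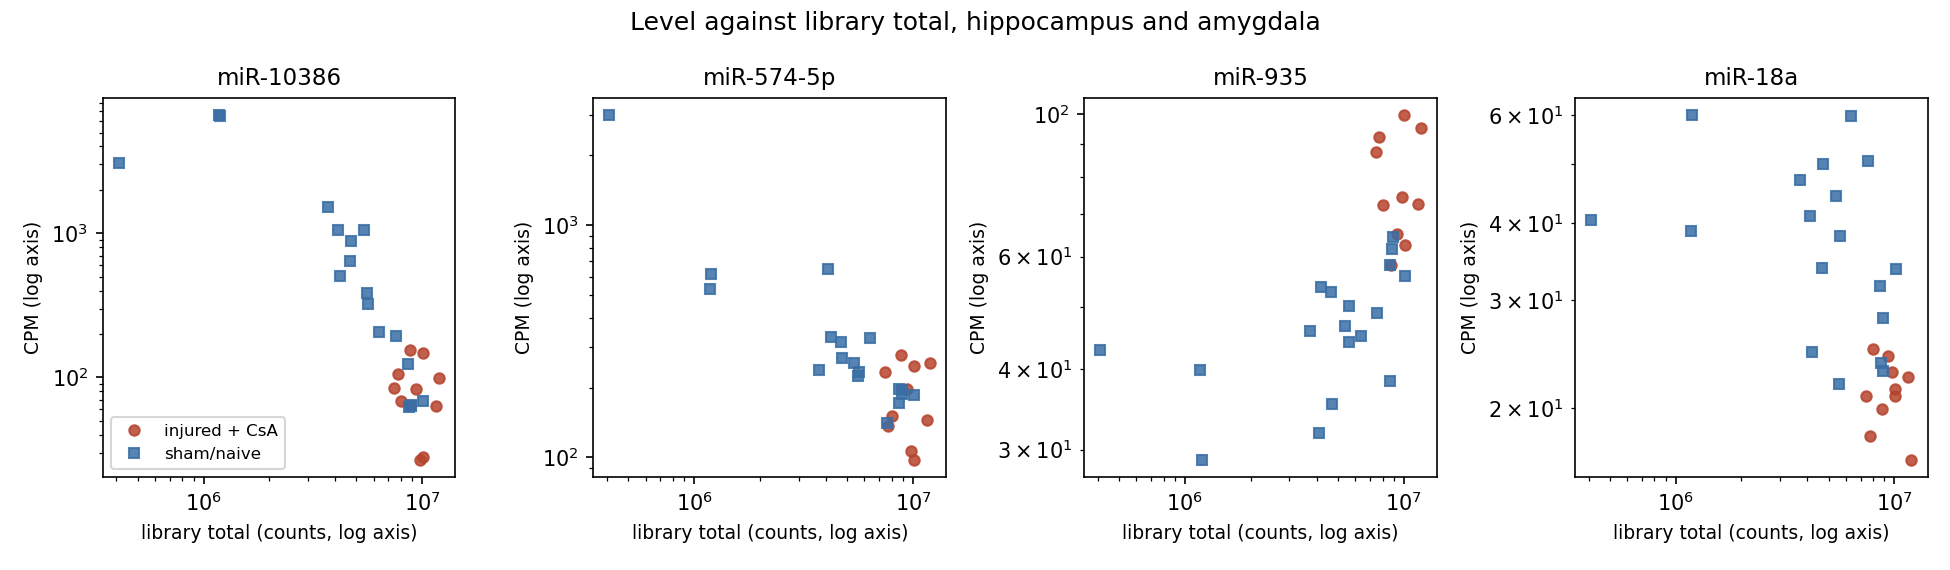
Level in CPM against library total, both on log axes, for miR-10386, miR-574-5p, miR-935 and miR-18a. Circles are the 10 CsA libraries and squares the 18 sham or naive libraries. Sham levels of miR-10386 and miR-574-5p fall with the total (r = -0.859 and -0.912). Those of miR-935 rise with it by rho (0.639), while its r (0.519) did not pass. At the totals that both groups share the circles of miR-935 lie mostly above the squares. Among libraries at or above the lowest CsA total edgeR called 0 of 291 miRNAs, so miR-935 did not pass there.

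The other named miRNAs that fell had smaller sham spreads. miR-769-3p measured 30.8 to 119 CPM (median 65.6) in CsA libraries and 59.5 to 259 CPM (median 141) in sham libraries, with all 10 CsA libraries below the sham median (log2 -1.01, SE 0.26, adjusted p = 0.0066). miR-671-5p, known in mouse and human brain for directing cleavage of the circular RNA Cdr1as, was at 40.3 to 75.5 CPM (median 62.5) in CsA libraries and 48.5 to 179 CPM (median 97.8) in sham libraries (log2 -0.77, SE 0.19, adjusted p = 0.00602). Again no CsA library reached the sham median. Among codes beginning 12 or 13 miR-671-5p had a log2 fold change of -0.07, and among codes beginning 11 of -0.93. miR-885-3p (log2 -1.15) and miR-30c-1-3p (log2 -0.63) fell as well. miR-139-3p (log2 -0.62) and miR-1285 (log2 -0.63) were at the threshold, each with an adjusted p of 0.0453, and lost it in 18 and 17 of the 28 fits that left out 1 library. Of the 24 named miRNAs, 20 were called in every one of those fits.

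miR-122-5p, the abundant miRNA of hepatocytes, was lower in CsA libraries, at 22.7 to 49.6 CPM (median 35.0), than in sham libraries, at 29.4 to 182 CPM (median 49.4). In 9 of 10 CsA libraries it lay below the sham median (log2 -0.74, SE 0.21, adjusted p = 0.0103). The other liver marker, miR-122-3p, had no count in any library of either group. How miR-122-5p comes to be in brain tissue was not tested.

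**Figure D3:**
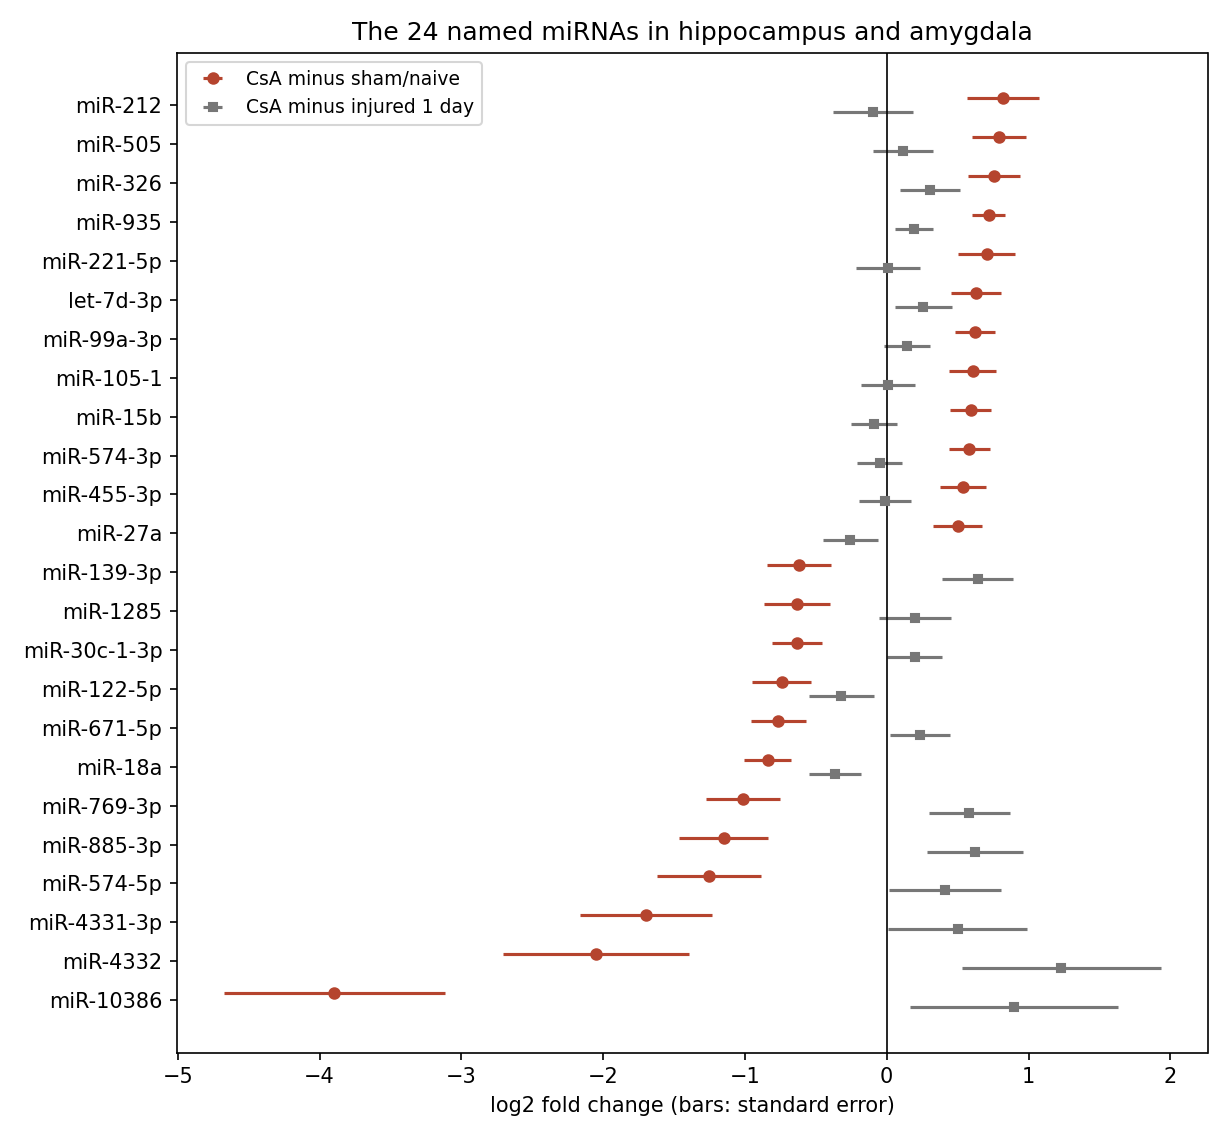
Log2 fold change of the 24 named miRNAs in the hippocampus and amygdala, for CsA minus sham or naive (circles) and CsA minus injured at 1 day (squares), with standard errors as bars. Against sham the values run from 0.82 (miR-212) to -3.90 (miR-10386), and against injured animals at 1 day none of the 24 passed.

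Lists of miRNAs were then read for cell types and pathways, against the 20.1% of all 299 tested miRNAs that were called, 10.0% higher and 10.0% lower. In a bulk sample fewer cells of a type and less RNA per cell cannot be told apart. Of 15 neuron-enriched names 3 rose and 0 fell, with a list median of 0.20 against 0.01 over all 299. The 3 were miR-9, miR-9-1 and miR-9-2, which hold the same reads and are 1 result. By distinct reads 1 of 10 members rose, the share called higher over all miRNAs, so the count is no result about the list. miR-9, which acts in neural progenitors and neurons, measured 9633 to 19327 CPM (median 11114) in CsA libraries and 5462 to 16367 CPM (median 8188) in sham libraries. All 10 CsA libraries were above the sham median (log2 0.48, SE 0.14, adjusted p = 0.0135). The change was 0.73 among codes beginning 11 and 0.22 among codes beginning 12 or 13, and without CsA replicate 1, the highest library, the adjusted p was 0.054.

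Other neuronal miRNAs did not pass. miR-124a, the miRNA most specific to neurons, was at 7683 ± 1853 CPM in CsA libraries and 8573 ± 1763 CPM in sham libraries (log2 -0.16, adjusted p = 0.323). miR-128 averaged 5305 CPM in CsA libraries and 5295 CPM in sham libraries (log2 0.00), and miR-138, known in rat neurons for limiting the size of dendritic spines, had a log2 fold change of 0.05. miR-129a-3p had the largest value among the list members that did not pass (log2 0.61, 30.1 against 19.7 CPM, adjusted p = 0.054).

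The oligodendrocyte and myelin list had 2 of 3 members lower and 0 higher, with a median of -0.37, against 10.0% lower and a median of 0.01 over all 299. With 3 members the share itself carries little. miR-338, which promotes oligodendrocyte maturation, spanned 333 to 751 CPM (median 534) in CsA libraries and 463 to 983 CPM (median 801) in sham libraries. No CsA library reached the sham median (log2 -0.45, SE 0.13, adjusted p = 0.0135). miR-219b-3p, of the miR-219 family, had 148 to 234 CPM (median 175) in CsA libraries and 159 to 300 CPM (median 235) in sham libraries, again with all 10 below the sham median (log2 -0.35, SE 0.11, adjusted p = 0.0204). miR-219a itself was near the limit of detection, at 1.95 ± 0.377 CPM in CsA libraries and 2.80 ± 2.60 CPM in sham libraries (adjusted p = 0.312). Summed, the 3 markers ran from 483 to 971 CPM in CsA libraries and from 662 to 1287 CPM in sham libraries. miR-338 and miR-219b-3p had log2 fold changes of -0.29 and -0.27 among codes beginning 11 and of -0.43 and -0.28 among codes beginning 12 or 13. Neither passed within either set, and their signs were the same in both, which are parts of the libraries that gave the calls. With the library total as a covariate miR-338 had -0.29 and miR-219b-3p -0.21, and neither passed (edgeR adjusted p = 0.298 and 0.345). How many oligodendrocytes or how much white matter each block of tissue held was not tested.

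Of the glial inflammation list 0 of 5 members passed, where 20.1% over all miRNAs would come to 1 member, so the count does not set the list apart. miR-155-5p, induced by NF-kB signalling in microglia and macrophages, was at 213 ± 20.3 CPM in CsA libraries and 210 ± 37.0 CPM in sham libraries (log2 0.02, SE 0.08, adjusted p = 0.895). miR-21-5p, a miRNA of reactive astrocytes, was at 104 ± 17.1 CPM in CsA libraries and 102 ± 18.8 CPM in sham libraries (log2 0.02, SE 0.13, adjusted p = 0.903). miR-146b, a feedback inhibitor of Toll-like receptor signalling, had a log2 fold change of 0.73 (9.63 ± 4.90 against 5.84 ± 3.36 CPM, adjusted p = 0.0701). It passed in 4 of the fits that left out 1 library, those without CsA replicate 3, 4 or 8 or sham replicate 13. miR-146a-5p, a relative with the same seed, was at 1.35 CPM in CsA libraries and 2.16 CPM in sham libraries and had the opposite sign (log2 -0.71, adjusted p = 0.207).

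Of the markers of blood and vessels, the leukocyte list had 0 of 5 members past the threshold, the erythrocyte list 1 of 3 and the endothelial list 1 of 5, against 20.1% over all miRNAs, and lists this short cannot be told from that share. Leukocyte members included miR-142-3p (log2 -0.47, adjusted p = 0.093, and 0.049 without CsA replicate 7), miR-142-5p (log2 0.20) and miR-223 of granulocytes (medians 6.32 and 6.28 CPM, log2 0.18). Of the erythrocyte list miR-451 rose (log2 1.62, SE 0.52, adjusted p = 0.0207), at 0.0911 to 10.7 CPM (median 4.19) in CsA libraries and 0 to 5.67 CPM (median 1.12) in sham libraries. The groups overlapped widely, 7 of 10 CsA libraries were above the sham median, and without CsA replicate 7 the adjusted p was 0.0583. miR-144, from the same transcript, had a log2 fold change of 1.13 (adjusted p = 0.178), and miR-486 was at 210 ± 92.0 CPM in CsA libraries and 198 ± 60.5 CPM in sham libraries (log2 0.09). The summed erythrocyte markers had medians of 214 CPM in both groups. Most of that sum is miR-486, so it says little about miR-451 or miR-144. In the endothelial list 1 of 5 rose, the minor arm miR-221-5p named above, while miR-126-3p (log2 0.11), miR-126-5p (log2 -0.18), miR-221-3p (0.09) and miR-222 (0.26) did not pass.

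The counts of further lists are given beside the same 20.1%. Of 6 calcineurin and NFAT associated miRNAs, including miR-23a, miR-199b and miR-708, 0 passed (median 0.16), and of 13 associated with mitochondria miR-181a rose (3835 against 2907 CPM, log2 0.40, adjusted p = 0.0453) and miR-338 fell. miR-210, induced by hypoxia, was at 45.2 ± 8.09 CPM in CsA libraries and 42.7 ± 11.8 CPM in sham libraries (log2 0.07, adjusted p = 0.696). The astrocyte-associated (7 members), mural and fibroblast (8), choroid plexus and epithelial (5) and skeletal muscle (3) lists had 0 calls by edgeR. Choroid plexus markers summed to 264 to 1452 CPM in CsA libraries and 112 to 1690 CPM in sham libraries, a wide range within each group.

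**Figure D4:**
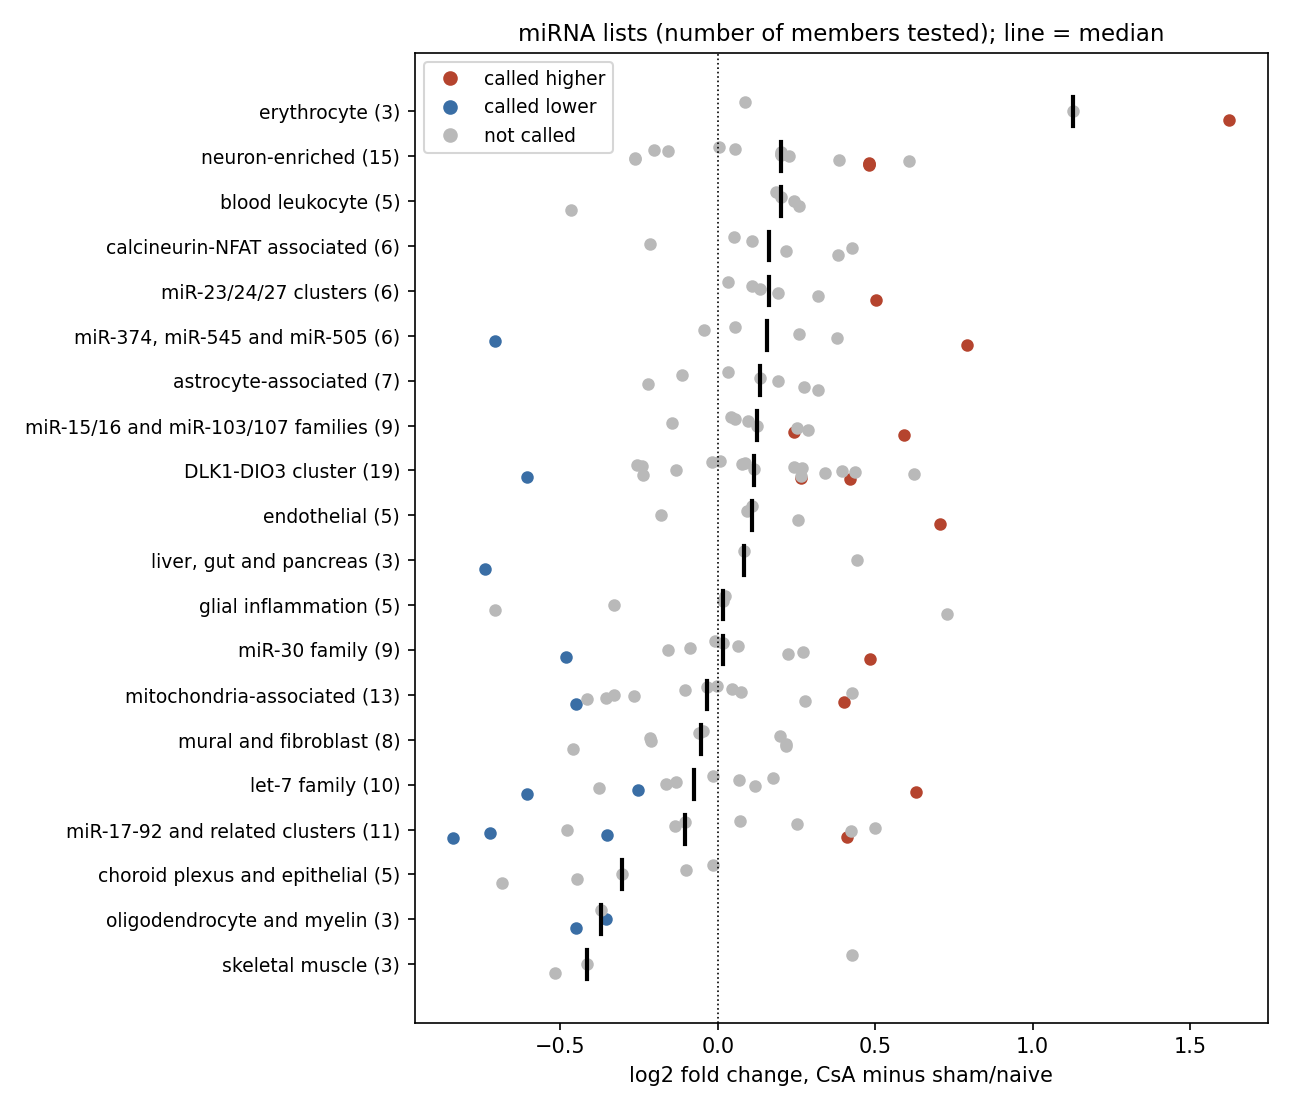
Log2 fold change, CsA minus sham or naive, of each tested member of the lists with at least 3 tested members. Coloured points passed an adjusted p of 0.05 and bars are list medians. Blue points, called lower, make up 2 of 3 members of the oligodendrocyte and myelin list (median -0.37) and 3 of 11 of the miR-17-92 list, against 10.0% over all miRNAs, and the glial inflammation and leukocyte lists hold no coloured point.

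Among families, let-7 members did not move as 1. let-7e fell to 39345 ± 7458 CPM in CsA libraries, against 59865 ± 17614 CPM in sham libraries (log2 -0.61, SE 0.16, adjusted p = 0.00825), and let-7f-5p fell by 0.25 on the log2 scale (adjusted p = 0.0453). let-7c, which took 31.4% of all counts in CsA libraries and 35.8% in sham libraries, had a log2 fold change of -0.38 (adjusted p = 0.0564), and let-7a of -0.13 (adjusted p = 0.273). let-7g and let-7i-5p had values of -0.02 and 0.07. let-7 members differ by few bases and may share reads, so single values are uncertain. let-7e neighbours mir-99b and mir-125a in the RefSeq gene table, and those 2 had log2 fold changes of 0.21 (adjusted p = 0.105) and 0.13 (adjusted p = 0.238).

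In the miR-17-92 and related clusters 3 of 11 tested members fell and 1 rose, against 10.0% each way over all miRNAs. Besides miR-18a, miR-17-5p fell (55.3 ± 12.7 against 70.7 ± 13.1 CPM, log2 -0.35, adjusted p = 0.0454), as did miR-106a, at a mean of 1.88 CPM in CsA libraries and 3.18 CPM in sham libraries. miR-92a rose (205 ± 57.3 against 155 ± 40.1 CPM, log2 0.41, adjusted p = 0.0293). miR-20a-5p had a log2 fold change of -0.14 and miR-19b of 0.07, and neither passed. Of the miR-15/16 family with its relatives around miR-103, 2 of 9 tested members rose (10.0% over all miRNAs), miR-15b and miR-103 (5163 against 4367 CPM, log2 0.24, adjusted p = 0.0362), and 0 fell. miR-16, of the same family as miR-15b, had a value of 0.13 and did not pass.

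In the DLK1-DIO3 cluster, an imprinted locus whose miRNAs are expressed mainly in brain and placenta, 2 of 19 rose and 1 fell, against 10.0% each way over all miRNAs. miR-299 spanned 377 to 662 CPM (median 476) in CsA libraries and 302 to 519 CPM (median 364) in sham libraries, with all 10 CsA libraries above the sham median (log2 0.42, SE 0.09, adjusted p = 0.000566). miR-323 was at 928 ± 70.9 CPM in CsA libraries and 773 ± 105 CPM in sham libraries (log2 0.26, adjusted p = 0.0103). miR-370 fell to 17.6 ± 3.85 CPM in CsA libraries, against 26.7 ± 10.6 CPM in sham libraries (log2 -0.61, adjusted p = 0.0293). The list median was 0.11. Of the miR-23/24/27 clusters miR-27a alone of 6 passed. Of the caudal HOX cluster, miR-10a-5p fell at a low level (1.82 ± 0.831 CPM in CsA libraries, 3.90 ± 3.08 CPM in sham libraries, log2 -1.08, adjusted p = 0.017), and miR-10b did not pass. Of the 9 tested members of the miR-30 list miR-30c-5p rose (137 ± 37.5 CPM in CsA libraries, 97.8 ± 27.7 CPM in sham libraries, log2 0.48, adjusted p = 0.0157) and miR-30b-3p fell (log2 -0.48), and miR-30c-1-3p, a further arm of the family that the list does not hold, fell as given above. Of the miR-374, miR-545 and miR-505 list miR-505 rose and miR-545-5p fell (log2 -0.71), out of 6.

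The ratio of the 5p to the 3p arm of 1 precursor within a library does not depend on how the library is scaled. The 0.5 added to each count is an exception, and weighs most where an arm has few counts. The ratio was tested with limma for 61 precursors. The ratio changed for 22 (36.1%), toward the 5p arm in 13 and toward the 3p arm in 9, with 28 at an unadjusted p under 0.05. For miR-574 the arms moved in opposite directions. The mean log2 ratio was 3.22 ± 0.635 in CsA libraries and 4.60 ± 1.03 in sham libraries, a change of -1.38 (SE 0.34, adjusted p = 0.01), and 0 of 10 CsA libraries were above the sham median. miR-574-5p fell while miR-574-3p rose, as given above. miR-139 shifted the other way (change 0.87, adjusted p = 0.018, 10 of 10 CsA libraries above the sham median): its major arm miR-139-5p rose (12030 ± 1244 CPM in CsA libraries, 10107 ± 1290 CPM in sham libraries, log2 0.25, adjusted p = 0.017) while miR-139-3p fell.

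The largest shifts toward the 5p arm besides that of miR-139 were those of miR-130b (1.44), miR-885 (1.40), miR-7139 (1.17), miR-4331 (1.14), miR-769 (0.93) and miR-22 (0.87), and smaller ones were those of miR-30b (0.75), miR-221 (0.72), miR-30c (0.63), miR-374a (0.44) and miR-425 (0.36). In the 28 fits that left out 1 library the call was lost in 16 for miR-7139, in 13 for miR-4331 and in 4 for miR-130b, and in 1, that without CsA replicate 2, for miR-22. In miR-885 and miR-769 only the 3p arm had passed alone, and in miR-130b only the 5p arm. The ratio of miR-142, of leukocytes, also shifted (0.65, adjusted p = 0.018): the mean log2 ratio was 0.10 ± 0.332 in CsA libraries and -0.55 ± 0.602 in sham libraries, although neither arm passed alone. Toward the 3p arm the largest shifts after miR-574 were those of miR-664 (-0.996), miR-17 (-0.94), miR-92b (-0.78), miR-129a (-0.71) and let-7d (-0.56), with smaller ones for miR-199a (-0.48), miR-99a (-0.43) and miR-126 (-0.28). The call was lost in 10 of the 28 fits for miR-129a, without CsA replicate 3 or 5 for let-7d and without CsA replicate 1 for miR-92b. For miR-17, miR-92b and let-7d 0 of 10 CsA libraries lay above the sham median. With the library total as a covariate limma called 0 of 61 ratios (9 by unadjusted p), and 21 of the 22 had the same sign. Among codes beginning 12 or 13 it called 1 of 58, and among codes beginning 11 it called 6 of 56. Those sets held fewer libraries, and the part of depth, code or set size in the lower counts was not tested. Without CsA replicate 1 or CsA replicate 2 the count was 10.

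**Figure D5:**
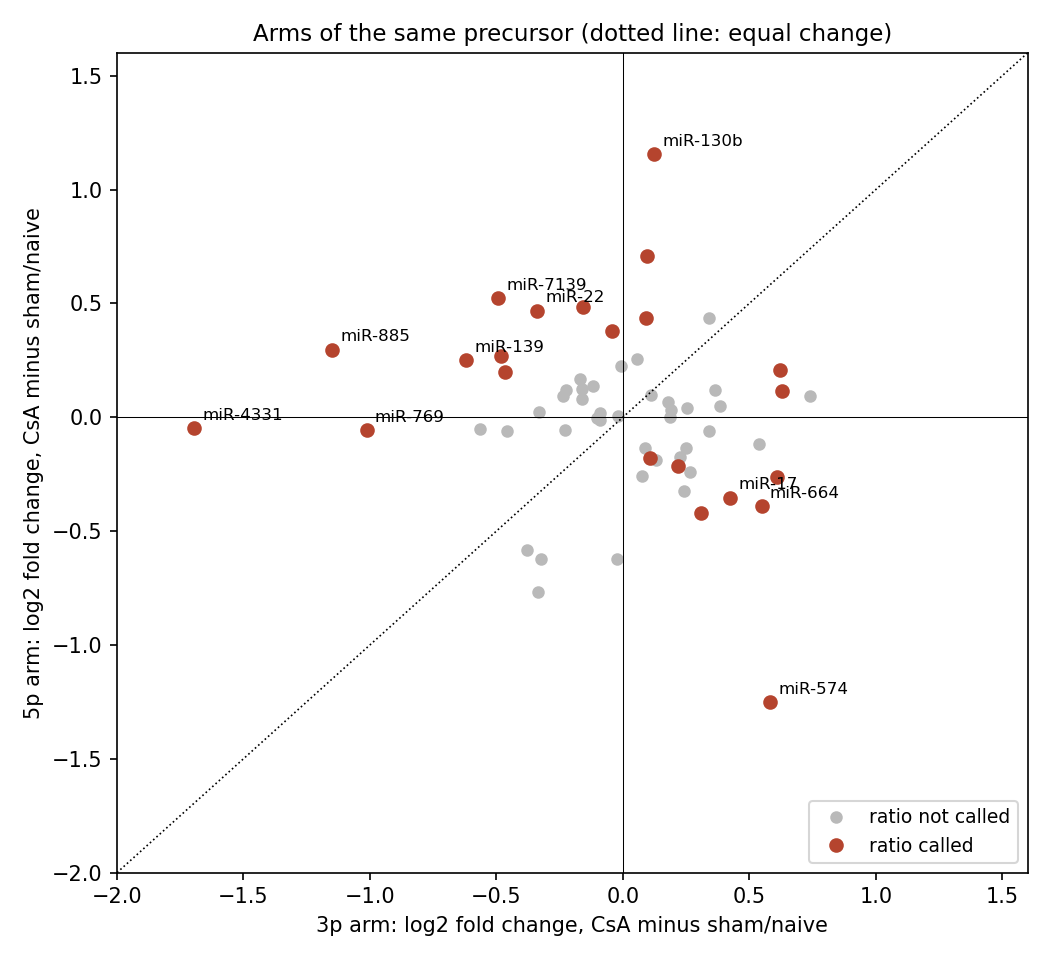
Log2 fold change, CsA minus sham or naive, of the 5p arm against that of the 3p arm for 61 precursors. Red points are the 22 precursors whose arm ratio passed, and the dotted line marks equal change of both arms. miR-574 lies at 0.58 on the 3p axis and -1.25 on the 5p axis, and miR-885 at -1.15 on the 3p axis and 0.30 on the 5p axis.

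The second question was whether treated injured piglets differed from untreated injured piglets at 1 day, the group nearest in time. Geometric mean totals were 9365963 counts with CsA and 9341456 counts at 1 day. edgeR called 0 of 299 (0%), with 71 at an unadjusted p under 0.05 and a smallest adjusted p of 0.108. DESeq2 called 13, 8 higher and 5 lower, with adjusted p-values from 0.0124 to 0.0499, most of them at 0.0499. Its own filter gave no adjusted p to some of the 299, so the 13 are not out of 299. limma voom called 0. Without CsA replicate 1 edgeR called 20, 9 higher and 11 lower, and without the 1 day replicate 6 it called 7.

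The 5 miRNAs with the smallest p in that comparison are given as values. miR-125a, abundant in brain, measured 1921 to 3203 CPM (median 2551) in CsA libraries and 1448 to 2559 CPM (median 2056) at 1 day, and 9 of 10 CsA libraries lay above the 1 day median (log2 0.31, adjusted p = 0.108). miR-126-5p, of endothelium, measured 338 to 510 CPM (median 384) in CsA libraries and 402 to 802 CPM (median 496) at 1 day, with 7 of 10 CsA libraries below every library at 1 day (log2 -0.44, adjusted p = 0.108). miR-92b-3p was at 1458 ± 675 CPM in CsA libraries and 837 ± 399 CPM at 1 day (log2 0.80, adjusted p = 0.119). miR-1343 and miR-328 had log2 values of 0.66 and 0.48. Of these 5, DESeq2 gave an adjusted p to 2 only and called both, miR-125a (adjusted p = 0.0124) and miR-92b-3p (adjusted p = 0.0267). The others were left out by its filter and have no DESeq2 result.

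Both injured groups were set against the same sham libraries, so values are given side by side and no likeness is drawn from them. At 1 day 145 of 299 miRNAs passed against sham (48.5%), and the CsA count in the same fit was 60. miR-212 had log2 0.82 with CsA and 0.92 at 1 day, miR-15b 0.59 and 0.68, miR-9 0.48 and 0.72, and miR-769-3p -1.01 and -1.60. miR-935 had 0.72 with CsA and 0.53 at 1 day, and miR-18a -0.84 and -0.47. The direct differences of these 6 between CsA and 1 day ran from -0.37 to 0.58 and none passed. miR-21-5p had 0.02 with CsA and 0.42 at 1 day (adjusted p = 0.00593 at 1 day), with a direct difference of -0.39 (adjusted p = 0.131), and miR-126-3p had 0.11 and 0.39, with a direct difference of -0.29 (adjusted p = 0.131).

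The frontal lobe of 9 of the 10 CsA piglets and of all 18 sham piglets gave the same comparison in another region. There 100 of 293 miRNAs passed (34.1%). Whether the CsA minus sham difference was larger in 1 region was tested as an interaction with the animal as a block: edgeR called 0 of 299 (0%), with 62 at an unadjusted p under 0.05 and a smallest adjusted p of 0.171, limma voom called 0, and DESeq2 called 19. The 5 with the smallest p were miR-7134-3p (hippocampus and amygdala minus frontal lobe 0.84), miR-7-5p (-0.55), miR-18a (-0.56), miR-126-5p (-0.59) and miR-29c (-0.44). miR-18a had log2 -0.84 in the hippocampus and amygdala and -0.28 in the frontal lobe, and miR-935 0.72 and 0.14, while miR-338 had -0.45 and -0.30 and miR-10386 -3.90 and -4.68. DESeq2's 19 included, picked after their values were seen, 5 miRNAs of the epithelial miR-183/182/96 and miR-200b/429 clusters with differences from -3.59 (miR-182) to -6.90 (miR-96-5p). For miR-182 and miR-183 CsA minus sham did not pass in the hippocampus and amygdala.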

How the data were processed

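Counts per porcine miRNA and library were analysed as deposited: whole numbers, not scaled by the authors, who used Trimmomatic 0.39 and cutadapt 1.9.1 per the submitters' processing notes. The sources used here name no aligner, annotation or build and do not say whether molecular identifiers were collapsed, so a count may not be an independent molecule. Of 542 entries 1 was kept per mature name, the one with the highest total, which left 457 names. The 53 libraries of the hippocampus and amygdala (4 groups) entered 1 fit with edgeR 4.0.16 in R 4.3.3: TMM scaling, filterByExpr (minimum count 10, minimum total 15), robust quasi-likelihood test, 2-sided, Benjamini-Hochberg adjustment at 0.05. CPM carry TMM factors. Arm ratios used log2 of counts plus 0.5 and limma 3.58.1. The region interaction used 27 animals with both regions as blocks. Pairing came from the shared animal code, and deviations from the group means had a median correlation of 0.223 within animals, above 0.1 in 18 of 27, and -0.01 between animals. Library totals and the let-7 share were compared with 2-sided permutation tests of 100000 resamples, exact for the smaller sets, and levels in sham libraries were set against the total with Pearson's and Spearman's coefficients. DESeq2 1.42.0 and other settings served as alternatives. The fit was tested on simulated counts.

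miRNAs named in the text passed the threshold with at least 10 CPM in a group: the 12 that rose most and the 12 that fell most, or the 5 of smallest p where fewer than 3 passed. A panel of 16 stems was added, and for arms the 6 largest shifts each way. List members with the smallest p or highest mean are also named. The members and lists were chosen with earlier results of these data known. Neighbouring precursors came from the RefSeq gene table of pig (Sscrofa11.1). Sequences are not shown.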

Additional observations from a re-analysis of the deposited data

Results flagged for a closer look

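The 10 CsA libraries were examined for 57 quantities, the levels of the named and panel miRNAs, the named arm ratios, the library total and the let-7 share. In 3 of them 1 library lay apart from the others by a gap larger than the 95% limit of Dixon's test, and chance alone gives this in about 1 of 20 groups. For miR-326, CsA replicate 3 was at 115.3 CPM, the next library at 74.7 CPM and the group median at 44.7 CPM. For let-7d-3p the same library was at 31.5 CPM, the next at 19.8 CPM and the median at 14.1 CPM. For miR-9, CsA replicate 1 was at 19327 CPM, the next at 13404 CPM and the median at 11114 CPM. Without these libraries miR-326 still passed against sham, let-7d-3p had a log2 fold change of 0.46 (edgeR adjusted p = 0.0513) and miR-9 of 0.38 (edgeR adjusted p = 0.054).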

How the results depend on the processing

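For CsA minus sham, edgeR's 60 calls became 60 with RLE size factors, 54 without the let-7 family, 68 with DESeq2, 48 with limma voom, 55 with no filter, 54 of 209 at a mean of at least 10 CPM, 59 with names sharing reads merged, 70 with all deposited entries, 56 with both groups alone, 56 with sham codes of letter U alone, 50 among codes beginning 11, 42 (30 higher, 12 lower) with code class as a covariate, 49 without the small sham libraries (chosen after seeing the data), 3 with the library total as a covariate, 0 among codes beginning 12 or 13 and 0 among libraries at or above the lowest CsA total. These calls were not always the same miRNAs. Those with sham codes of letter U alone (290 tested) held 43 of the 60. Those among codes beginning 11 (281 tested) held 38, and those with code class as a covariate (286 tested) held 36. Leaving out 1 library gave 41 to 72. CsA minus 1 day gave 13 calls with DESeq2, at adjusted p-values from 0.0124 to 0.0499 and with some miRNAs filtered out. Leaving 1 library out gave 0 to 20 with edgeR, 20 without CsA replicate 1 and 7 without 1 day replicate 6. The region difference gave 19 with DESeq2, and 0 with no replicate block (50 at an unadjusted p under 0.05), so the pairing of regions by animal changed no call there. Arm ratios gave 0 with the total as a covariate, 6 among codes beginning 11, 1 among codes beginning 12 or 13 and 10 to 24 when 1 library was left out. Among codes beginning 12 or 13 the ratio of totals was 1.22 and the let-7 difference -1.10 points, and neither passed.

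Signs that turned round were these, as log2 fold changes of CsA minus sham, and the cause was not tested. With RLE size factors miR-155-5p had -0.0034, and with all deposited entries miR-155-5p had -0.023 and miR-21-5p -0.015. With the total as a covariate miR-4332 had 0.33, miR-4331-3p 0.048, miR-574-5p 0.097, miR-1285 0.038, miR-223 -0.022, miR-210 -0.00097 and miR-21-5p -0.027. Among codes beginning 12 or 13 miR-4332 had 0.14, miR-4331-3p 0.17, miR-1285 0.072, miR-139-3p 0.041, miR-124a 0.26, miR-132 0.041 and miR-210 -0.11. With code class as a covariate miR-124a had 0.0046. With sham codes of letter U alone miR-219a had 0.38, miR-210 -0.061, miR-486 -0.17, miR-155-5p -0.14 and miR-21-5p -0.12. At or above the lowest CsA total miR-4332 had 0.64, miR-4331-3p 0.098, miR-574-5p 0.029, miR-1285 0.19, miR-139-3p 0.0076 and miR-126-3p -0.033. Without the small sham libraries miR-21-5p had -0.00033. The arm ratio of miR-4331 was -0.11 with the total as a covariate and -0.0091 among codes beginning 12 or 13. The 12 named miRNAs that rose kept their sign in each of these settings, all of which reuse libraries that the 12 were chosen from.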

Other observations

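Neighbouring precursors in the RefSeq gene table did not always move together. Of 215 tested names matched to 1 RefSeq miRNA gene, 74 fell into 23 clusters with gaps of at most 10000 bases. In the mir-191 and mir-425 cluster miR-191 rose (6790 ± 616 CPM in CsA libraries, 5529 ± 1005 CPM in sham libraries, log2 0.30, edgeR adjusted p = 0.046), as did miR-425-5p (medians 141 and 97.1 CPM, log2 0.44, edgeR adjusted p = 0.0103), and miR-425-3p had a value of 0.09. In the mir-30b and mir-30d cluster miR-30b-3p fell (log2 -0.48, edgeR adjusted p = 0.0173), while miR-30b-5p had a value of 0.27 and miR-30d of 0.06, neither past the threshold. In the cluster of mir-450a, mir-450b, mir-450c and mir-542, miR-542-5p fell to 71.9 ± 16.3 CPM in CsA libraries, against 108 ± 32.4 CPM in sham libraries (log2 -0.58, edgeR adjusted p = 0.0162), and the 7 tested members ran from -0.58 to 0.74. miR-374a and miR-545 share a cluster: miR-545-5p fell (5.38 ± 2.36 against 8.77 ± 2.80 CPM, log2 -0.71, edgeR adjusted p = 0.0162), and miR-374a-5p had a value of 0.38 (edgeR adjusted p = 0.13).

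Outside the named set, 9 calls had under 10 CPM in both groups. Among them miR-7857-3p rose (2.47 ± 1.53 CPM in CsA libraries, 0.927 ± 0.972 CPM in sham libraries, log2 1.43, edgeR adjusted p = 0.00428) and miR-190a fell (medians 1.17 and 2.54 CPM, log2 -1.23, edgeR adjusted p = 0.00925). miR-22-3p was lower in all 10 CsA libraries than the sham median (271 ± 33.9 against 343 ± 60.7 CPM, log2 -0.34, edgeR adjusted p = 0.0102). These were picked after their values were seen.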
